A study of Mus musculus with 4 samples.

Results

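The genes described here are the cytokine genes Il10, Il19, Il20 and Il24 and the kinase gene Mapkapk2, which lie together on mouse chromosome 1, and Il10ra and Il10rb, which encode the receptor chains for interleukin 10. These 7 genes were taken by name from the 52636 genes of the deposited expression table. The RNA came from Th17 cells, which are helper T cells known for interleukin 17, made in culture from naive cells of C57BL/6 mice labelled PP2A WT (2 libraries) or PP2A cKO (2 libraries). PP2A is a serine/threonine phosphatase, and neither the subunit that was deleted nor the Cre driver is given in the labels. Cells of both genotypes had spent 2 days with irradiated autologous antigen presenting cells (3 per cell) and anti-CD28 and anti-CD3, each at 2 µg/ml. The cytokines added were IL-6 at 20 ng/ml and TGF-β1 at 2 ng/ml, with antibodies to IFN-γ and IL-4, each at 10 µg/ml. Ionomycin (500 ng/ml) and PMA (50 ng/ml) were then given for 4 hours. The 2 libraries of a genotype are described as biological replicates, with nothing on whether mice were pooled, so a p-value measures the spread between these libraries, which may be technical.

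Interleukin 10 restrains inflammation: it binds a receptor made of the IL-10RA and IL-10RB chains, the kinases JAK1 and TYK2 are activated, and STAT3 carries the signal to the nucleus. The cytokines encoded by Il19, Il20 and Il24 are its relatives, and they signal through receptors that contain IL-20RB in place of IL-10RA and IL-10RB. Th17 cells driven by TGF-β and IL-6 are known to make interleukin 10, and Maf is among the factors that act on its gene. Mapkapk2 encodes MK2, a kinase switched on by p38 that phosphorylates RNA-binding proteins and so lengthens the life of mRNAs with AU-rich elements, cytokine mRNAs among them.

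The values are FPKM, which scale reads by gene length and library depth, so levels of different genes can be compared within a library. The WT libraries held 19347055 and 18517487 reads assigned to genes, and the cKO libraries 20387948 and 19521977. All 10 T cell markers and all 5 Th17 markers looked at reached 1 FPKM, and Il17a, the signature cytokine gene of these cells, had 757 and 628 FPKM in WT and 521 and 479 FPKM in cKO. Ppp2ca, the main PP2A catalytic gene, had 42.2 and 50.1 FPKM in WT and 41.8 and 34.5 FPKM in cKO (limma, adjusted p = 0.360), so the genotype of a library is known from its label alone. The cKO libraries differed from each other along transcript GC content (Spearman's rho = -0.529 across genes) more than the WT libraries did (0.121). Fold changes are also given after a GC correction where it changes a call.

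The cluster spans 216 kb, from 130882074 to 131097826 on chromosome 1 (GRCm38), in the order Il24, Il20, Il19, Il10, Mapkapk2. Il10 alone is on the plus strand. All are protein-coding, and the 4 cytokine genes overlap no other gene of the table. Promoter sequences from RefSeq (GRCm38.p6) were used for 3 of the 7 genes, Il20, Il19 and Mapkapk2. Those of Il10, Il24, Il10ra and Il10rb are not used here. The 3 are all the members that the promoter set used here held, and they were not chosen by RNA level. Each line holds the 250 bases before the RefSeq start site, 5′ to 3′ on the minus strand. By the coordinates of the expression data, Il20 starts at 130911451, inside its window. Part of that window thus lies within the gene as annotated there. Capitals mark letters that match a motif listed after the sequences, on either strand.
Il20 (chr1:130911297-130911546): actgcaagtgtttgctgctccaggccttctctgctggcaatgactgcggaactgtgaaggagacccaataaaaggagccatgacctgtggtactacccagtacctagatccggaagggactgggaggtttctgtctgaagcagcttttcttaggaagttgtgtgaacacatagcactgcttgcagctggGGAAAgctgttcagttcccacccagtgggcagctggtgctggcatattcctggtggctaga
Il19 (chr1:130940116-130940365): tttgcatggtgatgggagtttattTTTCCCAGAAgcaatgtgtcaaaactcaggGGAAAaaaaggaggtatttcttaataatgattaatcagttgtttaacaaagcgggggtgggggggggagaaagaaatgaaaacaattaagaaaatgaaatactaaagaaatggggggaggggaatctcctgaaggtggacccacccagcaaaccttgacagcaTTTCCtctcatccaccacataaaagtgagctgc
Mapkapk2 (chr1:131097844-131098093): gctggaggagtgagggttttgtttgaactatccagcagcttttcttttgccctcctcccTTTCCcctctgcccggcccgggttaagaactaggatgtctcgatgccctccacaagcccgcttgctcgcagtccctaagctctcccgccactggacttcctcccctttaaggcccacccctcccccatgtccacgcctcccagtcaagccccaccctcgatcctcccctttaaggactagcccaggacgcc

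The motifs searched on both strands were the AP-1 motif TGACTCA and its looser form TGANTCA, which includes it. The others were the STAT motif TTCNNNGAA, the Maf site core TGCTGA, the NFAT core GGAAA, the cAMP response element TGACGTCA and the TATA box TATAAA. The NFAT core matched once in the Il20 window, once in the Mapkapk2 window and 3 times in the Il19 window. Of all 32851 promoter windows of this length, 55.6% hold it. The Il20 match lies 61 bases before the RefSeq start, but inside the gene by the coordinates of the expression data. TTCNNNGAA matched 1 time, in the Il19 window, where it overlaps a GGAAA match on the other strand, and 7.02% of all windows hold it. None of the other 5 motifs was found in the 3 windows. Of all windows, 4.46% hold the AP-1 motif, 6.75% its looser form, 16.1% the Maf site core, 1.55% the cAMP response element and 12.4% the TATA box. The GC content was 42% before Il19, 52.8% before Il20 and 60.4% before Mapkapk2, against a median of 52.4% over all windows, and the windows held 1, 2 and 9 CpG dinucleotides, against a median of 6.

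Il10 and Il24 were higher in cKO than in WT cells, Il19 and Il20 had at most 3 reads in any library, and the difference in Mapkapk2 was in the same direction but did not pass the test. Il10rb did not pass either, and Il10ra was too low to be tested. Of the 7 genes, 4 averaged 1 FPKM or more over the libraries and entered the test, which was run over 10562 genes with limma on log2(FPKM + 1) and Benjamini-Hochberg adjustment over all of them. Of these 4, 2 were higher past an adjusted p of 0.05 and none lower, where 0.814% of all tested genes were called higher. Over all genes 86 were higher and 27 lower, a split that was 284 and 263 with limma voom on recovered reads and 247 and 252 after the GC correction. Both cKO libraries lay above both WT libraries for 3 of the 4 tested genes, as they did for 27.2% of all tested genes.

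**Figure D1:**
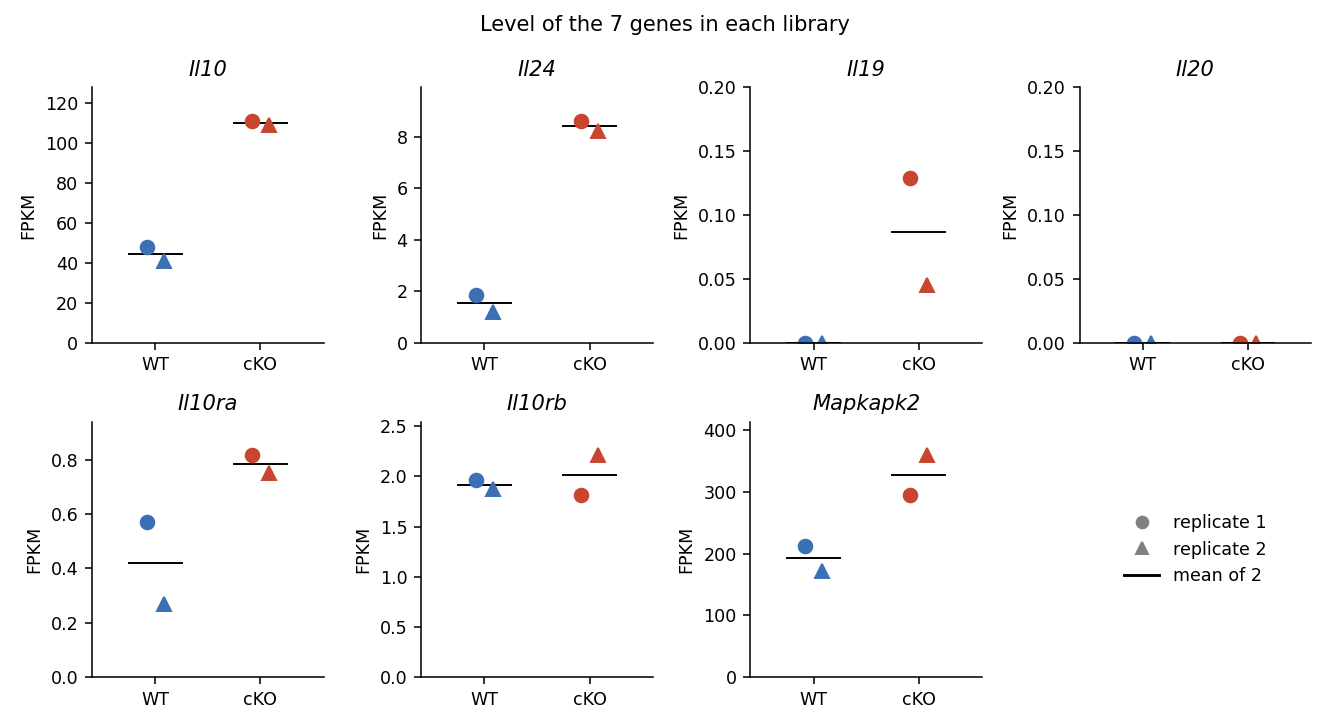
FPKM (y axis, linear from 0, own scale per gene) of the 7 genes in the 2 WT and 2 cKO libraries (x axis), with circles for replicate 1, triangles for replicate 2 and lines at the means. Il10 lies at 47.9 and 41 in WT and at 111 and 109 in cKO, Il24 at 1.84 and 1.21 and at 8.63 and 8.22, and Il20 at 0 in all 4 libraries.

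Il10 (ENSMUSG00000016529, chromosome 1, 131019845 to 131024974, plus strand) had 47.9 and 41 FPKM in WT cells and 111 and 109 FPKM in cKO cells. Both cKO libraries were well above both WT libraries, and the cKO pair was the closer of the pairs. The mean was 44.5 ± 4.83 FPKM in WT and 110 ± 1.38 FPKM in cKO (SD, n = 2), 2.48-fold higher. On the log2(FPKM + 1) scale, which understates the change of low genes, the difference was 1.29 ± 0.11 (SE; 95% interval 1.00 to 1.58; limma, adjusted p = 0.0270), the 58th highest of all tested genes. In bulk RNA, more cells that express a gene and more of its RNA per cell cannot be told apart. An exact permutation test of 2 against 2 libraries can at best give a two-sided p of 0.333, so each call here leans on the variance limma shares across genes. Without WT replicate 1 or without WT replicate 2 the Il10 difference was 1.40 or 1.18 and missed the threshold (limma, adjusted p = 0.0552 and 0.116).

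Il10 was also among the more abundant mRNAs of these cells. Its mean over the 4 libraries was above that of 93.2% of the tested genes. Il17a was 15.8 and 15.3 times as high as Il10 in the WT libraries and 4.69 and 4.39 times as high in the cKO libraries, a ratio of FPKM that did not overlap between genotypes. Il17a itself had a log2 difference of -0.46 ± 0.14, which was not called (limma, adjusted p = 0.159).

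Il24 (ENSMUSG00000026420, chromosome 1, 130882074 to 130887454, minus strand) encodes a secreted relative of interleukin 10. Its level was 1.84 and 1.21 FPKM in WT and 8.63 and 8.22 FPKM in cKO. These values correspond to 50 and 32 reads in WT and to 243 and 221 reads in cKO, and the exact Poisson 95% intervals, which cover counting error only, do not overlap between genotypes (37.1 to 65.9 and 21.9 to 45.2 reads in WT; 213 to 276 and 193 to 252 in cKO). The mean rose from 1.53 ± 0.449 to 8.43 ± 0.288 FPKM (SD, n = 2), 5.52-fold. The difference of 1.91 ± 0.14 on the log2(FPKM + 1) scale (SE; 95% interval 1.54 to 2.28; limma, adjusted p = 0.0206) was the 8th highest of the 10562 tested genes, and it passed the threshold with each library left out in turn (adjusted p from 0.0103 to 0.0470). On recovered reads, where no pseudocount of 1 FPKM enters, it was 2.48 (limma voom, adjusted p = 0.00559).

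Il10 remained the main cytokine mRNA of the cluster in both genotypes. It made up 96.3% and 97.1% of the summed FPKM of the 4 cytokine genes in WT and 92.7% and 93% in cKO. The share of Il24 was 3.71% and 2.86% in WT and 7.2% and 7.01% in cKO, with no overlap. Expressed as a ratio, Il10 was 26 and 34 times as high as Il24 in the WT libraries and 12.9 and 13.3 times as high in the cKO libraries. The summed level of the 4 genes was 49.7 and 42.2 FPKM in WT and 120 and 117 FPKM in cKO.

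Il19 (chromosome 1, 130932656 to 130940115) and Il20 (130906985 to 130911451), both on the minus strand between Il24 and Il10, encode cytokines best known from myeloid and skin cells. Il19 had 0 reads in both WT libraries and 3 and 1 reads in the cKO libraries, or 0.129 and 0.0449 FPKM. A count of 0 allows up to 3 reads, here 0.135 and 0.141 FPKM, so a difference in Il19 was not detectable at this depth. Il20 had 0 reads in each of the 4 libraries, which allows levels of up to 0.124 to 0.137 FPKM.

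Il10ra (ENSMUSG00000032089, chromosome 9, 45253837 to 45269149, minus strand) encodes the chain specific to interleukin 10. It had 0.570 and 0.269 FPKM in WT and 0.816 and 0.752 FPKM in cKO, from 39 and 18 reads and from 58 and 51 reads. Both cKO values lay above both WT values, but the exact Poisson 95% intervals of WT replicate 1 (27.7 to 53.3 reads) and cKO replicate 2 (38 to 67.1 reads) overlap. The gene was under the filter of 1 FPKM. With every gene of the table above 0 tested, its difference was 0.34 on the log2(FPKM + 1) scale (limma, adjusted p = 0.401). No gene at all was called in that run, Il10 and Il24 included, so it cannot decide whether Il10ra differed.

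Il10rb (ENSMUSG00000022969, chromosome 16, 91406164 to 91425834, plus strand) encodes the second chain, which receptors for interleukin 22 and the lambda interferons also use. It had 1.96 and 1.87 FPKM in WT and 1.81 and 2.21 FPKM in cKO, so the cKO libraries fell on either side of the WT pair. The log2 difference was 0.04 ± 0.12 (limma, adjusted p = 0.854), with a 95% interval from -0.26 to 0.34 that bounds the change on this scale without showing that the levels are equal. Its sign turned without cKO replicate 2 (-0.05) and on TPM (-0.03). Il10rb was 3.44 and 6.94 times as high as Il10ra in WT and 2.22 and 2.94 times as high in cKO. Il10ra was thus the scarcer chain in all 4 libraries.

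The order of the levels was Mapkapk2, Il10, Il10rb, Il24, Il10ra in both WT libraries, with Il19 and Il20 at 0. In both cKO libraries Il24 stood above Il10rb, at 8.63 and 8.22 against 1.81 and 2.21 FPKM. Il10rb and Il24 were neighbours in WT replicate 1 that hardly differed (1.96 and 1.84 FPKM). All other neighbours among the 5 detected genes kept their order in every library, while Il19 and Il20 cannot be ordered at this depth.

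Mapkapk2 (ENSMUSG00000016528, chromosome 1, 131053700 to 131097826, minus strand), the kinase gene whose start lies 78 kb from that of Il10, had the highest level of the 7. WT cells had 213 and 172 FPKM and cKO cells 294 and 359 FPKM, and its mean was above that of 98.2% of the tested genes. The groups did not overlap, but the replicates of each genotype were further apart than those of Il10. The mean was 193 ± 29.1 FPKM in WT and 327 ± 46 FPKM in cKO (SD, n = 2), and the log2 difference of 0.76 ± 0.16 (SE; 95% interval 0.34 to 1.17) missed the threshold (limma, adjusted p = 0.0939). It passed on recovered reads (voom, 0.77, adjusted p = 0.0355; 2.69% of all genes were called higher there) and after the GC correction (limma, 0.84, adjusted p = 0.0350; 2.34% called higher). Without cKO replicate 2 it was 0.62 and passed as well (limma, adjusted p = 0.0425; 13.2% of all genes were called higher there), while without either WT library its adjusted p was 0.261 and 0.612. The transcript has a GC content of 57.6%, against 44.5% for Il10 and 48% for Il24.

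**Figure D2:**
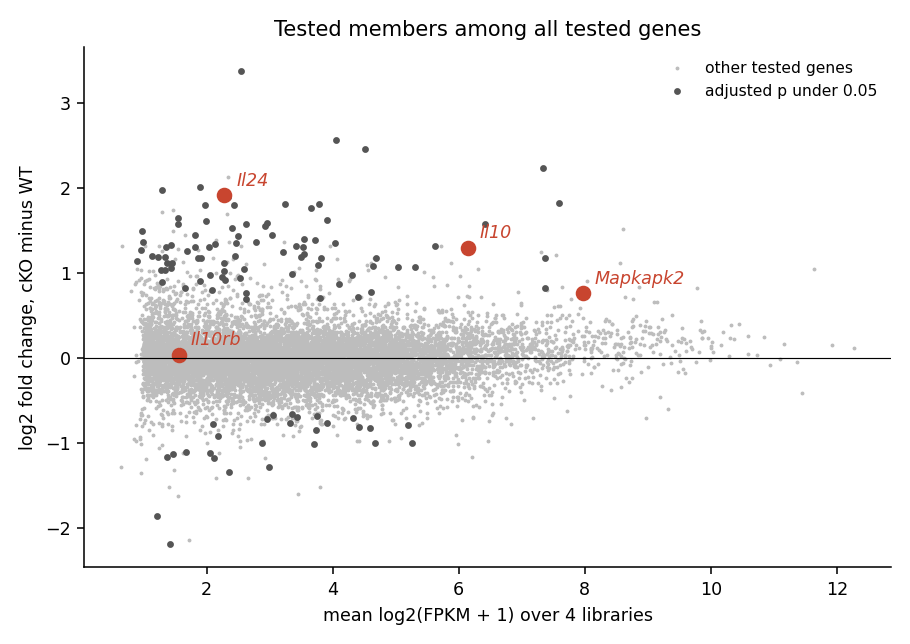
Log2 fold change, cKO minus WT (y axis), against the mean log2(FPKM + 1) over the 4 libraries (x axis) for the 10562 tested genes, with genes past an adjusted p of 0.05 in dark grey and the 4 tested members in red. Il24 (1.91) and Il10 (1.29) stand among the called genes, Mapkapk2 (0.76) lies at high expression without a call, and Il10rb (0.04) lies near 0.

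The neighbourhood of the cluster was looked at next. Up to 500 kb on either side of the cluster the table lists 44 genes, of which 21 were at 0 in all 4 libraries and 11 were tested. None of the 8 tested genes outside the cluster passed the threshold in either direction (limma). Of these, 3 had an unadjusted p under 0.05 (Fcmr, Ikbke and Fam72a), as had 19.8% of all tested genes. With voom 1, Ikbke, passed (0.71, adjusted p = 0.0449), where 2.69% of all tested genes were called higher. The differences of the 8 genes on the log2(FPKM + 1) scale ran from -0.30 to 0.57, against 0.76 for Mapkapk2. The order of Fcmr and Mapkapk2 depends on that scale. Fcmr was at 1.05 and Mapkapk2 at 0.77 with voom. The cKO libraries lay above the WT libraries for 4 of the 8 and below them for the other 4, while 27.2% and 28.7% of all tested genes did so.

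The closest tested neighbour of Il24 was Fcmr, which encodes a receptor for IgM and starts 154 kb before Il10. It had 0.765 and 0.814 FPKM in WT and 2.15 and 1.25 FPKM in cKO, a log2 difference of 0.57 ± 0.19 (limma, adjusted p = 0.196). The difference was 0.82 without cKO replicate 2 and 0.33 without cKO replicate 1. Further out on that side, Yod1, a deubiquitinase gene that overlaps Pfkfb2, had 1.59 ± 0.00901 FPKM in WT and 1.96 ± 0.284 in cKO (0.19, adjusted p = 0.424).

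On the Mapkapk2 side the nearest 3 tested genes had differences under 0, none past the threshold. The kinase gene Dyrk3, whose start lies 118 kb from that of Il10, had 4.58 and 4.40 FPKM in WT and 4.37 and 3.59 FPKM in cKO (log2 difference -0.15 ± 0.11, limma, adjusted p = 0.495). Eif2d, a translation factor gene, and Rassf5, which encodes a regulator of T cell adhesion, overlap each other and had differences of -0.12 and -0.14 (adjusted p = 0.523 and 0.465). Ikbke, the gene of an innate immune kinase, had 2.42 and 2.14 FPKM in WT and 3.31 and 4.16 FPKM in cKO (0.53 ± 0.13, adjusted p = 0.118). It overlaps 2 antisense genes that reached 0.283 FPKM at most. Srgap2 and Fam72a, whose starts lie side by side 508 kb from that of Il10, had differences of 0.15 and -0.30 (adjusted p = 0.402 and 0.194).

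**Figure D3:**
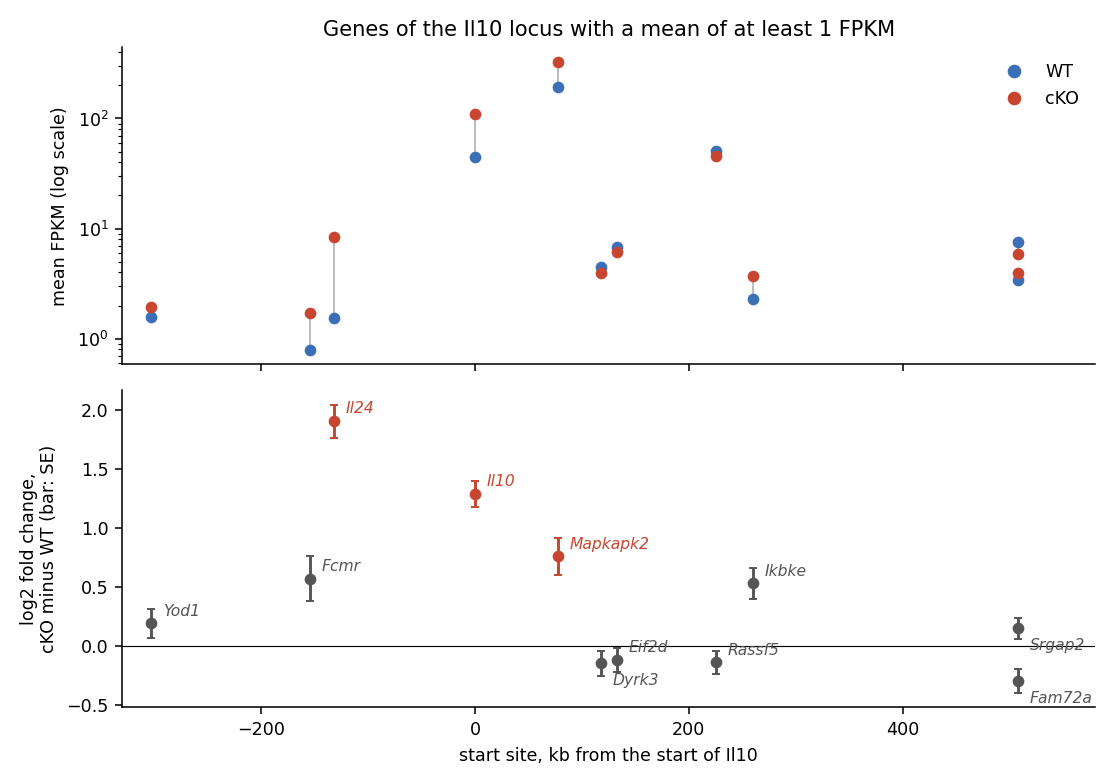
Mean FPKM of WT and cKO (upper panel, log scale) and log2 fold change with its SE (lower panel) for the genes of the locus with a mean of at least 1 FPKM, placed by the distance of their start sites from that of Il10 in kb (x axis). Il24, Il10 and Mapkapk2, in red, lie at 1.91, 1.29 and 0.76, and the 8 other genes between -0.30 and 0.57.

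The other cytokines of the family were nearly absent. Il22, a barrier cytokine of Th17 cells, had 12 and 7 reads in WT and 31 and 30 reads in cKO, or 0.552 and 0.330 and 1.37 and 1.39 FPKM, under the filter. Iltifb and Ifnl3 had 1 read each, in cKO replicate 2, and Ifnl2 had none in any library. None of the 5 further receptor genes of the family was tested either. Il20rb, the chain through which the Il19, Il20 and Il24 products signal, had 1.02 and 0.759 FPKM in WT and 1.04 and 1.07 FPKM in cKO. Its partners were rarer, Il20ra with 1 to 3 reads per library and Il22ra1 with 0 in all 4 libraries. Ifnlr1 had 0 reads in WT and 5 and 6 in cKO, and Il22ra2 had none.

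The genes that carry the interleukin 10 signal did not pass the test with limma. Of 8 genes for receptor kinases, STAT factors and SOCS inhibitors, 0 were called in either direction, and the median log2 difference was 0.10, beside -0.00 over all tested genes. At an unadjusted p under 0.05 there were 2 genes of the 8, beside 19.8% of all tested genes. With voom 1 passed, in the higher direction, where 2.69% of all tested genes were called higher. Of 8 genes that interleukin 10 induces in myeloid cells, 0 were called (0 with voom, and 1, Etv3, at an unadjusted p under 0.05), and the median was 0.08. The most changed on the log2(FPKM + 1) scale, the receptor gene Il4ra, had 23.2 and 22.9 FPKM in WT and 24.9 and 30.6 FPKM in cKO (0.25, limma, adjusted p = 0.330). Etv3 was nearly level with it on that scale (0.24). By the ratio of means Il4ra was 1.2-fold higher in cKO, Etv3 1.22-fold higher and Socs3 1.21-fold lower, so Il4ra did not lead there.

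Among regulators of Il10 transcription in T cells, 2 of 17 tested genes were higher in cKO and none lower, where 0.814% of all tested genes were called higher, and the median was 0.13. At an unadjusted p under 0.05 there were 8 of the 17, beside 19.8% of all tested genes. Among the 8, Irf4 (-0.45, limma, adjusted p = 0.102) and Ikzf3 (-0.38, adjusted p = 0.114) had values under 0. Maf, a known activator of Il10, had 11.9 and 11.4 FPKM in WT and 23 and 21.4 FPKM in cKO, with both replicates of each genotype close together (0.87 ± 0.09, limma, adjusted p = 0.0356). Tbx21, which encodes T-bet of the Th1 lineage, had 5.77 and 5.74 FPKM in WT and 13.9 and 18.1 FPKM in cKO (1.32 ± 0.14, adjusted p = 0.0356). Prdm1, another activator of Il10, was under the filter. Maf and Tbx21 missed the threshold without either WT library (adjusted p = 0.134 and 0.203 for Maf, 0.0558 and 0.0740 for Tbx21, without WT replicate 1 and 2), and Tbx21 also on TPM (0.0527).

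None of the other genes of the MK2 pathway was called. Of 10 tested genes around p38 and MK2, 0 passed in either direction, with differences from -0.47 to 0.51 and a median of 0.07. With voom 1, Map3k5, was lower, as were 263 of all 10562 tested genes. At an unadjusted p under 0.05 there were 5 of the 10, beside 19.8% of all tested genes. The most changed was Map2k6, a kinase gene upstream of p38, with 0.965 and 0.988 FPKM in WT and 2.20 and 1.48 FPKM in cKO (0.51 ± 0.16, limma, adjusted p = 0.174). Its difference was 0.70 without cKO replicate 2 and 0.33 without cKO replicate 1. Of 6 RNA-binding protein genes through which MK2 acts on AU-rich mRNAs, 0 passed (0 with voom, and 1, Zfp36l2, at an unadjusted p under 0.05), and the median was -0.18. The most changed was Zfp36l2, an mRNA decay factor gene, with 88.6 and 99.7 FPKM in WT and 48.8 and 67.7 FPKM in cKO (-0.70 ± 0.18, adjusted p = 0.127). Its difference was -0.93 without cKO replicate 2 and -0.47 without cKO replicate 1.

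**Figure D4:**
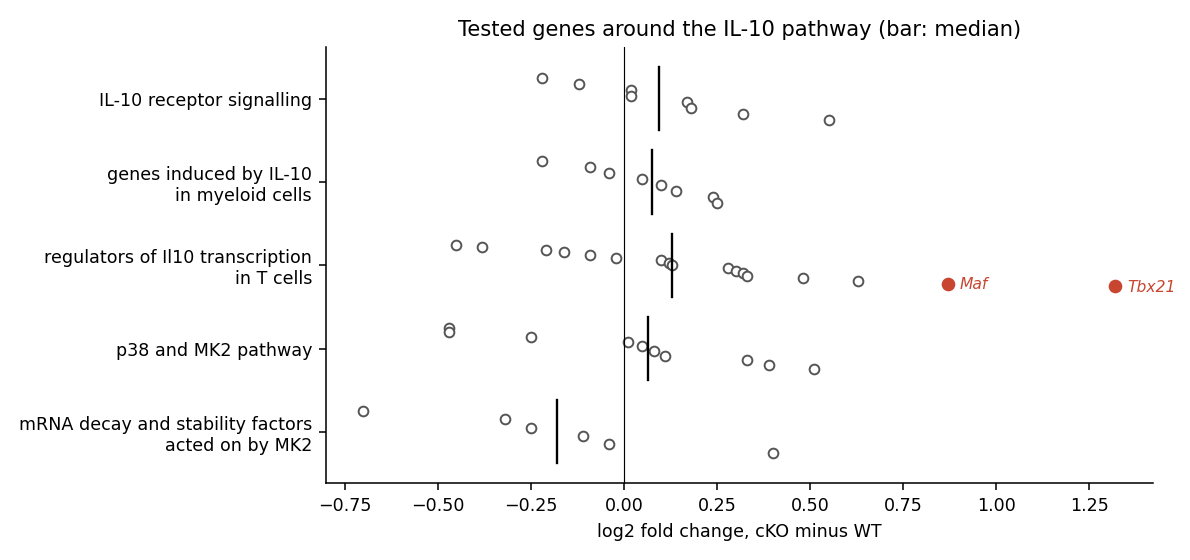
Log2 fold change, cKO minus WT (x axis), of the tested genes of 5 lists around the IL-10 pathway (y axis), with filled points for an adjusted p under 0.05 and bars at the medians. Maf (0.87) and Tbx21 (1.32) are the 2 called genes, and the medians lie between -0.18 and 0.13.

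Genes with a profile like that of Il10 were sought among 6342 tested genes averaging 5 FPKM or more, predicted genes, pseudogenes and receptor segments left out, by the Euclidean distance of centred log2(FPKM + 1) values over the 4 libraries. The 5 nearest were Nrn1 (distance 0.135), Slfn1 (0.159), Klf6 (0.163), Adam8 (0.165) and Pdzk1ip1 (0.173). Klf6, a zinc finger transcription factor gene, had 33.3 and 27.8 FPKM in WT and 83.8 and 70.2 FPKM in cKO. For Il24 the 5 nearest were the RNA sensor gene Ifih1 (0.232), Phlda3 (0.243), the early response gene Egr3 (0.286), the TNF family cytokine gene Lta (0.319) and Mir142b (0.321). Phlda3 was close to Il24 in level as well, with 1.97 and 1.85 FPKM in WT and 9.28 and 8.96 FPKM in cKO. Mir142b overlaps Mir142hg and had 13 to 52 reads per library, and Nrn1 overlaps Fars2. With 4 libraries in 2 groups, such a distance mostly ranks genes by their difference between genotypes.

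The fixed marker lists of other cell types had low sums in every library, but genes of antigen presentation outside those lists did not all do so. Cd74, the invariant chain gene of MHC class II, had 37.8 and 27.5 FPKM in WT and 67 and 100 FPKM in cKO (1.32 ± 0.24, limma, adjusted p = 0.0757), so that it lay higher in both cKO libraries along with Il10 and Il24. The class II gene H2-Ab1 had 12.5 to 17.5 FPKM with overlapping groups, H2-Eb1 had 1.08 to 1.28 FPKM, and H2-Aa and the class II regulator gene Ciita reached 0.245 and 0.0292 FPKM at most. The costimulatory genes Cd80 (0.240 and 0.277 FPKM in WT, 1.91 and 1.64 in cKO; 1.14, limma, adjusted p = 0.0391) and Cd86 (1.09 and 1.37, then 2.46 and 2.52; 0.65, adjusted p = 0.0734) also lay higher in both cKO libraries. Cd80 had only 8 and 9 reads in WT. With means of 0.259 FPKM in WT and 1.77 in cKO, it passed the filter of 1 FPKM only through the cKO libraries. Its adjusted p is therefore not support for a difference. The genes of antigen presentation were chosen after their values were seen, and their part in the results for Il10 and Il24 was not tested. The summed level of 6 B cell markers was 0.374 to 0.653 FPKM in WT and 0.547 to 0.786 in cKO, and none reached 1 FPKM. For 8 macrophage and monocyte markers it was 1.89 to 2.24 FPKM in WT and 1.28 to 1.69 in cKO, and 1 of them, Cd68, reached 1 FPKM. The 5 dendritic cell markers summed to 0.445 to 0.562 and 0.641 to 0.654 FPKM, with Siglech at 0, and the 4 mast cell and basophil markers were at 0 in all 4 libraries. NK cell markers reached 0.0434 FPKM at most, neutrophil markers 2.09 (with 3 of 4 at 0), erythroid markers 1.09 and CD8 T cell markers 7.61 to 10.2 FPKM. Il10, at 41 to 111 FPKM, was above the sum of each of these lists in all 4 libraries. Il24 was below the CD8 T cell sum in all 4 libraries and below the macrophage and monocyte sum in both WT libraries. In WT replicate 2 it was also below the neutrophil sum, and in every other comparison it was above the sum. Which cells made the RNA was not tested.

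**Figure D5:**
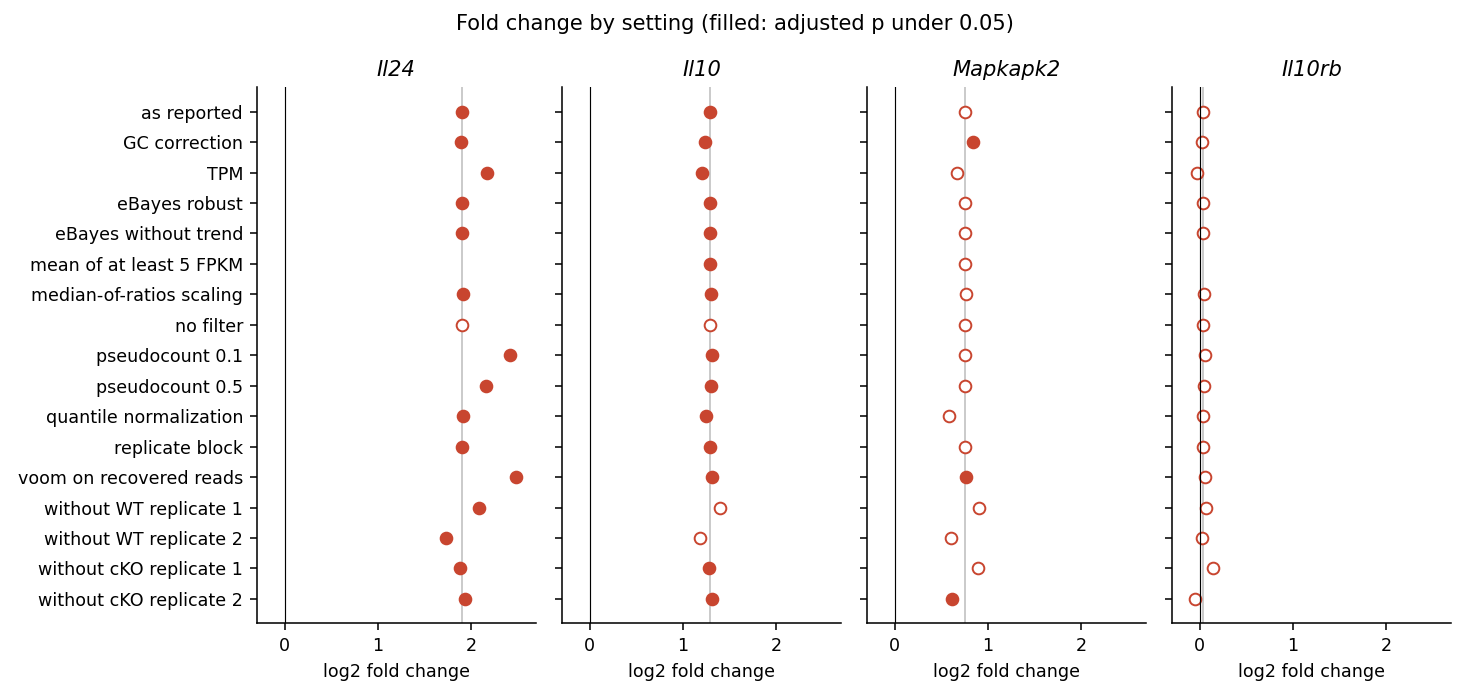
Log2 fold change, cKO minus WT (x axis), of the 4 tested members as reported and under 16 alternative settings (y axis), filled where the adjusted p is under 0.05. Il24 stays between 1.73 and 2.48 and Il10 between 1.18 and 1.40, while Mapkapk2 is filled in 3 of 16 settings and Il10rb lies on both sides of 0.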

How the data were processed

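The authors deposited 1 table of FPKM per gene for 4 libraries, with gene lengths in bases. Per the submitters' processing notes, genes were counted with featureCounts 1.5.0-p3 and the builds were GRCm38 and mm10. The aligner was not given in the sources used here, nor were the annotation release and the strand setting. In each library 1 read is worth a fixed amount of FPKM times length, and 100% of the values came out as whole reads to within 0.01 read, so reads were recovered.

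The 7 genes, the gene lists and the tests were chosen with earlier results of these data known. The test was limma 3.58.1 (R 4.3.3) on log2(FPKM + 1), cKO minus WT, over the 10562 genes that averaged 1 FPKM or more. It was two-sided, let the variance follow expression, used a Benjamini-Hochberg threshold of 0.05 and had no block. It was also run on simulated counts without a GC difference between replicates, so that run does not check the calls against such a difference. Named genes were the members, up to 3 called genes per list and direction or else the most changed, locus genes averaging 1 FPKM or more, the 5 nearest profiles to Il10 and to Il24, and Il17a. The markers in the text came from 10 fixed lists, and Prdm1, Irf4, Ikzf3, Etv3, Map3k5, Cd68, the antigen presentation genes, the family genes outside the members and Ppp2ca were named after their values were seen. The values of 1 list gene are not reported here.

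Alternatives were other pseudocounts, filters and scalings, other variance models, a replicate block, a GC correction by loess (span 0.5, GENCODE M21 transcripts), limma voom with TMM factors on the recovered reads, and the omission of each library. The coordinates of all 7 genes are the same in GENCODE M21. Same-numbered libraries did not deviate together (Pearson's r = -0.093 across genes). The cKO difference followed GC content more than the WT difference did, so this value cannot show whether the libraries were paired.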

Additional observations from a re-analysis of the deposited data

How the results depend on the processing

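The 4 tested members were recomputed under 16 alternatives, or 15 for Il24 and Il10rb, whose mean is under 5 FPKM. Il10 was higher in cKO in 16 of 16 and past the threshold in 13, and Il24 in 15 of 15 and past it in 14. Without a filter, 21807 genes were tested, 0 were called higher and 0 lower (limma; 3012 had an unadjusted p under 0.05), no list gene was called (0), and Il10 (1.29, adjusted p = 0.161) and Il24 (1.91, adjusted p = 0.167) missed the threshold. Over the omissions of 1 library, Il10 ran from 1.18 to 1.40, Il24 from 1.73 to 2.09, Mapkapk2 from 0.61 to 0.91 and Il10rb from -0.05 to 0.14. In an omission the lone library is assumed to vary like the genotype that keeps both. Mapkapk2 passed with voom (0.77), after the GC correction (0.84) and without cKO replicate 2 (0.62), and Il10rb turned to -0.03 on TPM, a scale on which the median of all genes was -0.09. The cause was not tested. Of all genes, 86 were higher and 27 lower. The counts were 154 and 73 with the replicate block, 284 and 263 with voom, 247 and 252 after the GC correction, 52 higher on TPM and 15 lower at a pseudocount of 0.1. Over the omissions they ran from 49 to 1390 higher and from 6 to 1614 lower, the highest without cKO replicate 2. Of the list genes, 2 were higher and 0 lower. On TPM 1 was higher, with voom 1 was lower, and over the omissions 0 to 6 were higher and 0 to 9 lower. The replicate block changed no call among the 4 members: Il10 1.29 (adjusted p = 0.0167), Il24 1.91 (0.00566), Mapkapk2 0.76 (0.121) and Il10rb 0.04 (0.905). Depth limits Il19, Il20 and Il10ra, which rest on 0 to 58 reads per library.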
